A study of Mus musculus with 6 samples.

Results

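The nuclei described here are the adipocyte nuclei of mouse subcutaneous adipose tissue (SAT), compared between 24 and 2 months of age by single-nucleus RNA sequencing. They were chosen by their own transcripts. A nucleus was kept when it held over 500 genes and over 1000 unique molecular identifiers (UMIs, each marking 1 captured RNA molecule), with under 15% of its UMIs from the mitochondrial genome. It was taken as an adipocyte nucleus when the sum of Adipoq, Plin1, Plin4, Lipe, Pparg and Acsl1 reached at least 5 UMIs and the sum of the immune, endothelial, epithelial and mesothelial genes Ptprc, Skap1, Pecam1, Ptprb, Epcam and Upk3b was at most 1 UMI. This rule held for 4303 of the 17570 SAT nuclei that passed the quality filters, in a series of 27074 such nuclei.

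The mice were female C57BL/6J animals, an inbred strain, with no treatment named in the labels, and SAT was the inguinal depot. The labels give 2 libraries at 2 months and 2 at 24 months, while the text of the series gives the older age as 26 months. The age on the labels is used throughout. Tissue came from 2 mice of each age, and no source used here says which library holds which animal, so all p-values measure the spread between libraries, which may be partly technical. The other 2 libraries of the series hold visceral fat (VAT, gonadal) at 24 months and are used only for a few levels given for comparison. A further set of nuclei, with at most 1 UMI of the 6 adipocyte genes, is called marker-low below. These 10599 SAT nuclei stand for the other cell types of the same libraries. They were chosen on low adipocyte transcripts alone, which does not exclude adipocyte nuclei among them.

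White adipocytes take up fatty acids released from circulating lipoproteins, make others from glucose by de novo lipogenesis, and esterify both to triglyceride in a lipid droplet. Insulin drives storage, and catecholamines drive release through beta-adrenergic receptors. Adipocytes also secrete hormones such as leptin and adiponectin and lie in a basement membrane of their own making. With age, subcutaneous fat is known to lose capacity to form adipocytes.

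The rule kept 839 and 431 nuclei in the 2-month libraries and 681 and 2352 in the 24-month libraries (replicates 1 and 2, here and in every pair of values below). At 2 months these were 18.3% (95% exact binomial interval 17.2 to 19.4) and 7.46% (6.80 to 8.17) of all nuclei. At 24 months the shares were 27.3% (25.6 to 29.1) and 49.9% (48.5 to 51.4). These intervals cover counting error only. The mean share was 12.9% ± 7.63 (SD, n = 2) against 38.6% ± 15.98 (SD, n = 2), a difference of 25.8 percentage points with an exact two-sided permutation p of 0.33. No smaller p is possible with 2 libraries against 2, and both shares at 24 months lay above both at 2 months. Near the threshold, 15 to 70 nuclei a library held exactly 4 UMIs of the 6 adipocyte genes and 16 to 77 held exactly 5.

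Summed over the adipocyte nuclei, the libraries held 749307 to 5953893 UMIs, and the 24-month replicate 2 supplied most of the older nuclei. The median nucleus held 1575 to 1968 UMIs and 997 to 1103 genes. Few barcodes recurred between libraries, at most 0.769% of the smaller one. Levels are given as CPM, UMIs scaled to 1000000 UMIs of the adipocyte nuclei of that library, and precision for a gene follows from this depth, least in the 2-month replicate 2. The median share of mitochondrial UMIs was 0.735% and 0.456% at 2 months and 1.43% and 2.17% at 24 months, higher in both older libraries.

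The label of the nuclei was checked on 12 adipocyte genes outside the rule. All 12 were detected in each library. Their sum was 19889 and 19494 CPM at 2 months and 22581 and 30898 CPM at 24 months, against 1099 to 4719 CPM in marker-low nuclei. The 4719 CPM belonged to the 24-month replicate 2, beside 1478 CPM in the 24-month replicate 1. Of the 12, Cd36 and Acvr1c were higher at 24 months and Gpam and Lpin1 lower. The genes of the rule itself are given without a test. Adipoq, the gene of adiponectin, stood at 1172 and 1066 CPM at 2 months and 445 and 1437 CPM at 24 months. Pparg, the master regulator of adipogenesis, stood at 1364 and 1353 CPM at 2 months and 3397 and 2170 CPM at 24 months. Lipe, the hormone-sensitive lipase, stood at 2491 and 2476 CPM against 1778 and 1708 CPM. Since the rule used the sum of these genes, nothing is read from their order, and the Adipoq values of the older pair lay on both sides of the younger pair.

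RNA of other cell types was present in the adipocyte nuclei and moved with age. All 10 T cell markers and all 6 tested B cell markers were lower at 24 months. The summed T cell markers fell from 297 and 570 CPM to 67.9 and 35.8 CPM, and the summed B cell markers from 327 and 456 CPM to 83.5 and 49.9 CPM. No marker of either list was at 0 in any library. In marker-low nuclei the T cell sum was 2916 and 3428 CPM at 2 months and 1541 and 662 CPM at 24 months. Macrophage and dendritic markers summed to 425 and 566 against 119 and 406 CPM, with 2 of 10 lower. Markers of fibro-adipogenic progenitors (FAPs, the stromal precursors) summed to 484 and 442 against 198 and 811 CPM, and of 9 edgeR called 0, with 2 at an unadjusted p under 0.05, and DESeq2 called 0. Smooth muscle and pericyte markers summed to 46.7 and 62.7 against 146 and 268 CPM, with 3 of 6 higher, among them Acta2 and Rgs5. One of the 4 tested skeletal muscle markers was higher and 1 of 2 mesothelial markers lower, and of 3 endothelial, 5 mammary epithelial and 3 Schwann cell markers edgeR and DESeq2 called 0, with 0 at an unadjusted p under 0.05. The part of this RNA in the gene results was not tested. Of the genes named from the lists, called ones that stood below their marker-low level are given after the lists.

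The question of the age comparison was which transcripts of the adipocyte nucleus differ between young and old SAT. UMI counts were summed per library and compared with the edgeR quasi-likelihood test, 2 libraries against 2. Calls were made at a threshold of 0.05 after Benjamini-Hochberg adjustment over all genes tested, with the genes of the rule left out. Of 12501 genes tested, 1908 were called (15.3%), 772 higher at 24 months (6.18%) and 1136 lower (9.09%). In all 1908 called genes both libraries of one age lay above both of the other, and so did 59.4% of all genes tested. The median log2 fold change of all genes was 0.01. With scaling by total UMIs instead of TMM factors this median moved to -0.14, and the calls split into 599 higher and 1452 lower. Leaving out each library in turn called 1013 to 2630 genes, and 318 higher and 331 lower genes were called in all 4 such fits. The smallest count came without replicate 2 of the 2-month group and the largest without replicate 1 of the 24-month group.

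Many called genes were also expressed in marker-low nuclei. Of the called genes, 338 higher and 264 lower ones stood at least 2 times above marker-low nuclei in both libraries of the age where they were higher. Whether an age difference was larger or smaller in adipocyte nuclei than in the marker-low nuclei of the same libraries was tested as an interaction. This called 904 of 16680 genes (5.42%). Among the 1908 genes called in adipocyte nuclei, 526 had a called interaction, whose sign is largely fixed by this choice of genes.

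The 10 genes with the largest increase and the 10 with the largest decrease are described first. They are protein-coding genes with at least 20 CPM at the age where they are higher and at least 2 times the marker-low level there. Only genes whose libraries did not overlap between the ages were taken, so the separation of the ages in them was fixed by this choice. All 20 were called in the same direction in each fit that left out a library. Errors of log2 fold changes are standard errors.

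Sfrp5, a secreted antagonist of Wnt proteins (chr19:42186410-42190691, GRCm39, as all gene positions), showed the largest increase. It stood at 1.15 and 0 CPM at 2 months and 155 and 198 CPM at 24 months, a log2 fold change of 7.85 ± 0.49 and an adjusted p of 0.00039. At 2 months it was close to absent, with 2 UMIs in both libraries together, so the ratio of the pooled levels, 235, has a 95% counting interval of 65.0 to 1944. The fitted fold change of a gene at 0 in a library depends on the prior count. Prkag3, the gamma 3 subunit of AMP-activated kinase, best known from skeletal muscle (chr1:74775818-74788380), was likewise near the floor at 2 months, with 1 UMI in all. Its values were 0.576 and 0 CPM at 2 months and 61.8 and 39.3 CPM at 24 months, with a pooled ratio of 109 (interval 19.4 to 4307). Timp4, an inhibitor of matrix metalloproteinases (chr6:115187773-115229336), stood at 5.19 and 4.0 CPM at 2 months and 215 and 392 CPM at 24 months, a log2 fold change of 6.12 ± 0.43 and an adjusted p of 0.00058. For these 3 genes the interaction with marker-low nuclei was not called, at 2.77 ± 1.65, adjusted p = 0.36 for Sfrp5, 4.88 ± 1.52, adjusted p = 0.08 for Prkag3 and 2.46 ± 0.75, adjusted p = 0.076 for Timp4. In marker-low nuclei Timp4 reached 1.95 to 59.2 CPM.

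Ptchd4, of the patched family (chr17:42626838-42818547), stood at 8.65 and 10.7 CPM at 2 months and 549.9 and 314 CPM at 24 months, a log2 fold change of 5.67 ± 0.43 and an adjusted p of 0.00063. Vgll3, a cofactor of TEAD transcription factors (chr16:65611923-65663369), stood at 6.92 and 1.33 CPM at 2 months and 206 and 221 CPM at 24 months, a log2 fold change of 5.54 ± 0.42 and an adjusted p of 0.00063. Mest, an imprinted gene known to follow fat expansion (chr6:30723546-30752058), stood at 4.03 and 0 CPM at 2 months and 71.3 and 146 CPM at 24 months, a log2 fold change of 5.45 ± 0.62 and an adjusted p of 0.0022. Each of the 3 was at under 11 CPM in both young libraries and above 70 CPM in both old ones. Folh1, a glutamate carboxypeptidase (chr7:86367992-86425186), stood at 1.73 and 1.33 CPM at 2 months and 51.6 and 60.8 CPM at 24 months, a log2 fold change of 5.24 ± 0.46 and an adjusted p of 0.0011. Gask1b, a Golgi protein (chr3:79791804-79853941), stood at 4.03 and 2.67 CPM at 2 months and 74.7 and 137 CPM at 24 months, a log2 fold change of 5.02 ± 0.46 and an adjusted p of 0.0012. The secreted matrix protein gene Ccn1 (chr3:145352720-145355738), a known target of YAP, stood at 8.65 and 5.34 CPM at 2 months and 125 and 291 CPM at 24 months, a log2 fold change of 4.93 ± 0.49 and an adjusted p of 0.0014. Ric3, a chaperone of nicotinic receptors (chr7:108633411-108682599), stood at 2.31 and 0 CPM at 2 months and 47.5 and 42.2 CPM at 24 months, a log2 fold change of 4.93 ± 0.60 and an adjusted p of 0.0029. That the ages do not overlap in these genes follows from how they were chosen.

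Among the decreases, Aspg, an asparaginase (chr12:112073076-112094007), was the steepest. It stood at 190.2 and 164 CPM at 2 months and 1.36 and 2.86 CPM at 24 months, a log2 fold change of -6.01 ± 0.35 and an adjusted p of 0.00039. Irf4, a transcription factor of lymphocytes that also acts in adipocytes (chr13:30933209-30950959), stood at 242 and 594 CPM at 2 months and 10.2 and 7.73 CPM at 24 months, a log2 fold change of -5.44 ± 0.49 and an adjusted p of 0.0012. The young libraries differed by over 2 times in Irf4, and both stayed far above the old pair. Irf4 is also an immune gene, and its level in marker-low nuclei was 28.8 to 97.2 CPM. The part of immune RNA in its decrease was not tested. Acacb (chr5:114284307-114388822), the acetyl-CoA carboxylase at mitochondria whose product malonyl-CoA inhibits fatty acid import, stood at 1693 and 2109.9 CPM at 2 months and 143 and 98.3 CPM at 24 months, a log2 fold change of -3.83 ± 0.36 and an adjusted p of 0.0013. In visceral adipocyte nuclei at 24 months it stood at 314 and 100 CPM. Fgf14, an intracellular FGF that acts on sodium channels (chr14:124211258-124914539), stood at 624 and 687 CPM at 2 months and 34.6 and 47 CPM at 24 months, a log2 fold change of -3.83 ± 0.28 and an adjusted p of 0.00063.

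The other 6 decreases were as follows. Acsm3, a medium-chain acyl-CoA synthetase (chr7:119360137-119386736), stood at 146 and 157 CPM at 2 months and 4.07 and 8.57 CPM at 24 months, a log2 fold change of -4.27 ± 0.33 and an adjusted p of 0.00065. Rgs2, which shortens G protein signals (chr1:143875076-143879899), stood at 108 and 153 CPM at 2 months and 3.39 and 9.57 CPM at 24 months, a log2 fold change of -3.95 ± 0.40 and an adjusted p of 0.0014. Aldh3b2, an aldehyde dehydrogenase (chr19:4022323-4031647), stood at 56.5 and 77.4 CPM at 2 months and 2.04 and 3.02 CPM at 24 months, a log2 fold change of -4.43 ± 0.40 and an adjusted p of 0.0012. These were detected in every library and were low in both old ones. Mmd2 (chr5:142539163-142594749) stood at 54.8 and 54.7 CPM at 2 months and 3.39 and 1.01 CPM at 24 months, a log2 fold change of -4.89 ± 0.54 and an adjusted p of 0.0018. Lingo4 (chr3:94305824-94318996) stood at 49 and 50.7 CPM at 2 months and 2.04 and 3.7 CPM at 24 months, a log2 fold change of -3.81 ± 0.41 and an adjusted p of 0.0016. Rnf144b, a ubiquitin ligase (chr13:47276132-47401467), stood at 63.4 and 74.7 CPM at 2 months and 3.39 and 5.37 CPM at 24 months, a log2 fold change of -3.70 ± 0.36 and an adjusted p of 0.0014. All 6 genes had a called interaction with marker-low nuclei.

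**Figure D1:**
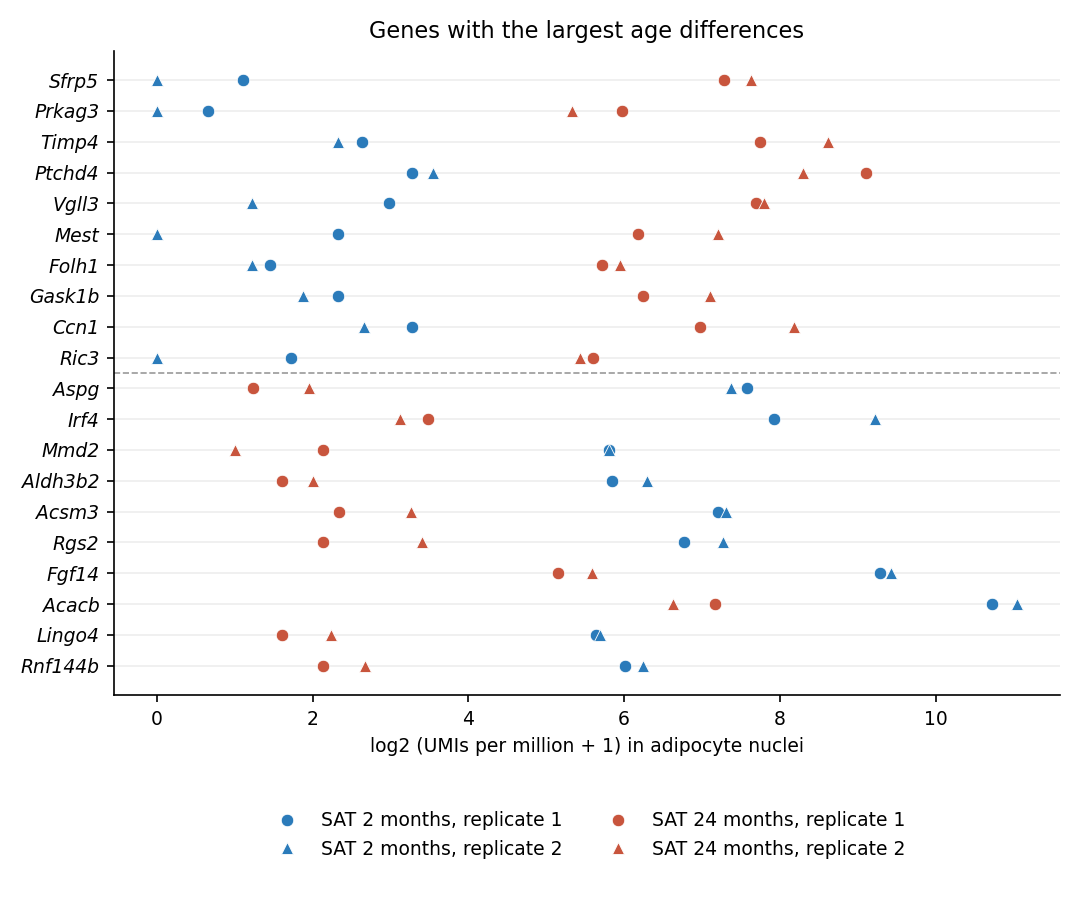
Each row is a gene and each point a library, with log2(CPM + 1) in adipocyte nuclei on the x axis. The upper 10 genes were higher and the lower 10 lower at 24 months (red) than at 2 months (blue). The genes were chosen so that the colours overlap in no row.

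Functional lists of genes were then read one by one. Each list is given as a count of called genes, to be read against the 15.3% called among all genes. Where a median log2 fold change is given, its reference is the 0.01 of all genes. No test of a list against these references is given. Several shares lay near 15.3%, among them 16.7% for adipogenic factors and for cholesterol synthesis. Others were 16.1% for insulin, IGF and growth hormone, 17.6% for AMPK, 13.6% for steroid and retinoid, 13.9% for antioxidant and 12.5% for branched-chain genes. No theme is read from counts near that share. A single value in brackets after a gene is its log2 fold change, with the standard error where it follows. Over the 39 lists, 186 of 928 tested genes were called, and 79 of these in every fit that left out a library. The number called depended on the library left out, with 126 and 121 without replicate 1 or 2 at 2 months and 322 and 273 without replicate 1 or 2 at 24 months.

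In fatty acid synthesis, 4 of 30 tested genes were lower and 2 higher (1 to 7 higher and 3 to 10 lower with a library left out), with a median log2 fold change of -0.27. Beside Acacb the lower genes were Acaca, the cytosolic acetyl-CoA carboxylase, at 982 and 1222 CPM at 2 months and 295 and 432 CPM at 24 months (-1.45 ± 0.30, adjusted p = 0.016). Srebf1, which encodes the insulin-responsive activator SREBP1, stood at 633 and 781 CPM at 2 months and 166 and 223 CPM at 24 months (-1.71 ± 0.27, adjusted p = 0.0069). Slc25a1, the carrier that brings citrate out of mitochondria (named after its value was seen), stood at 112 and 140.1 CPM at 2 months and 33.3 and 54.9 CPM at 24 months (-1.32 ± 0.28, adjusted p = 0.019). In each of these genes both old libraries were low. G6pdx, which makes NADPH in the pentose phosphate pathway, went the other way, at 38 and 25.4 CPM at 2 months and 92.3 and 129 CPM at 24 months (1.91 ± 0.30, adjusted p = 0.0063), as did Mid1ip1, which promotes polymerisation of acetyl-CoA carboxylase, at 5.19 and 2.67 against 15.6 and 14.8 CPM. The Acaca call was lost without replicate 2 at 2 months and that of Mid1ip1 without either 2-month library.

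Other genes of the list did not pass the test, and for several the 2 old libraries differed widely. Fasn, fatty acid synthase, stood at 511 and 487 CPM at 2 months and 33.9 and 347 CPM at 24 months (-1.23 ± 0.73, adjusted p = 0.3). Scd1, the stearoyl-CoA desaturase, stood at 1334 and 2327 CPM at 2 months and 492 and 4792 CPM at 24 months (0.66 ± 0.80, adjusted p = 0.63). For Fasn both old libraries lay below the young pair, at levels far apart, and for Scd1 they lay on both sides of it. Without the 24-month replicate 2, Scd1 was lower at 24 months, at -1.59 with an adjusted p of 6.2e-05, the reverse of the value over all libraries. Without the 24-month replicate 1 it was higher, at 1.56 (adjusted p = 0.0021), and so it was without the filter on low counts, at 0.95 (adjusted p = 0.011). With the replicate block it was -0.04 and in nuclei under 5% mitochondrial UMIs -0.03, neither called. Thrsp, a lipogenic nuclear protein, stood at 392 and 539 CPM at 2 months and 105 and 366 CPM at 24 months (adjusted p = 0.28), and Elovl6, the elongase, at 57.6 and 93.4 CPM at 2 months and 21 and 73.9 CPM at 24 months (adjusted p = 0.61). Mlxipl, which encodes the glucose-responsive ChREBP, stood at 1031 and 954 CPM at 2 months and 595 and 445 CPM at 24 months (adjusted p = 0.11), and Acly, ATP citrate lyase, at 92.2 and 104 CPM at 2 months and 46.8 and 88 CPM at 24 months (adjusted p = 0.48).

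Of 20 tested genes of triglyceride assembly, 3 passed the test, all lower, with a median of -0.25 (0 to 1 higher and 2 to 4 lower with a library left out). Gpam, the acyltransferase of the first step, stood at 1009 and 952 CPM at 2 months and 308 and 339 CPM at 24 months (-1.45 ± 0.26, adjusted p = 0.011). Agpat1, which adds the second acyl chain, stood at 148 and 163 CPM at 2 months and 50.9 and 51.9 CPM at 24 months (-1.44 ± 0.23, adjusted p = 0.007). Lpin1, the phosphatidate phosphatase that follows, stood at 975 and 945 CPM at 2 months and 202 and 225 CPM at 24 months (-2.01 ± 0.26, adjusted p = 0.0037). A share of 3 in 20 is close to the 15.3% of all genes tested. The diacylglycerol acyltransferases of the last step were not called, Dgat1 at 528 and 658 against 396 and 479.9 CPM and Dgat2 at 746 and 583 against 326 and 768 CPM. The Gpam call was lost without replicate 1 at 2 months.

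**Figure D2:**
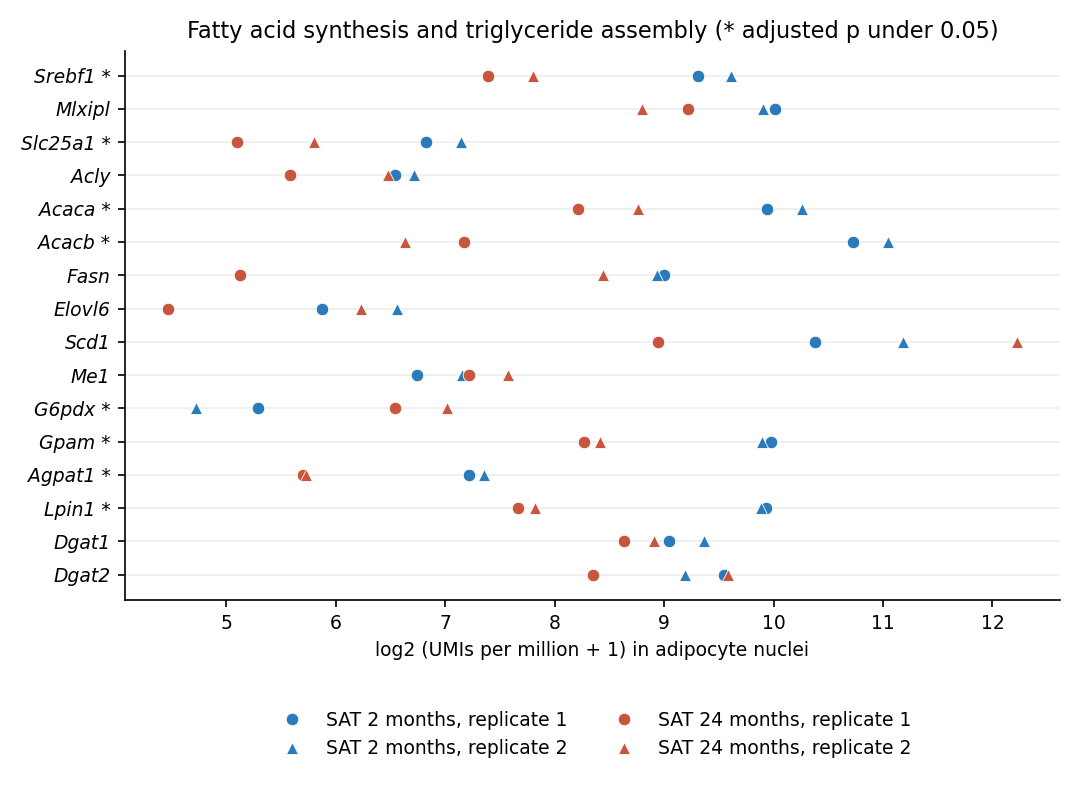
Points are libraries (blue 2 months, red 24 months), the x axis is log2(CPM + 1) in adipocyte nuclei, and an asterisk marks an adjusted p under 0.05. Acacb, Acaca, Srebf1, Slc25a1, Gpam, Agpat1 and Lpin1 lie left of the young pair in both old libraries, whereas Fasn and Scd1 are spread widely between the 2 old libraries.

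The split between the old libraries was seen in the distribution over single nuclei. Each nucleus was thinned to 1000 UMIs, and the UMIs of the fatty acid synthesis list were counted. The mean was 9.44 and 11.2 UMIs at 2 months and 3.92 and 9.95 at 24 months, and the median 9 and 11 against 3 and 7. In the 24-month replicate 2 the mean lay furthest above the median, and the variance was 9.21 times the mean, against 3.46 and 2.77 at 2 months and 1.83 in the 24-month replicate 1. Nuclei with 20 or more such UMIs numbered 39 (4.65%) and 32 (7.42%) at 2 months, 0 of 681 in the 24-month replicate 1 (which allows a share of up to 0.441%) and 222 (9.44%) in the 24-month replicate 2. Those 222 nuclei, selected on this list and so described without a test, held Scd1 at 21889 CPM and Fasn at 1571 CPM, against 3052 and 222 CPM in the other nuclei of the library. Acacb stood at 135 CPM in the 222 nuclei and 94.6 CPM in the others. At 2 months it stood at 3053 and 3268 CPM in the nuclei with 20 or more UMIs and at 1633 and 2006 CPM in the others.

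**Figure D3:**
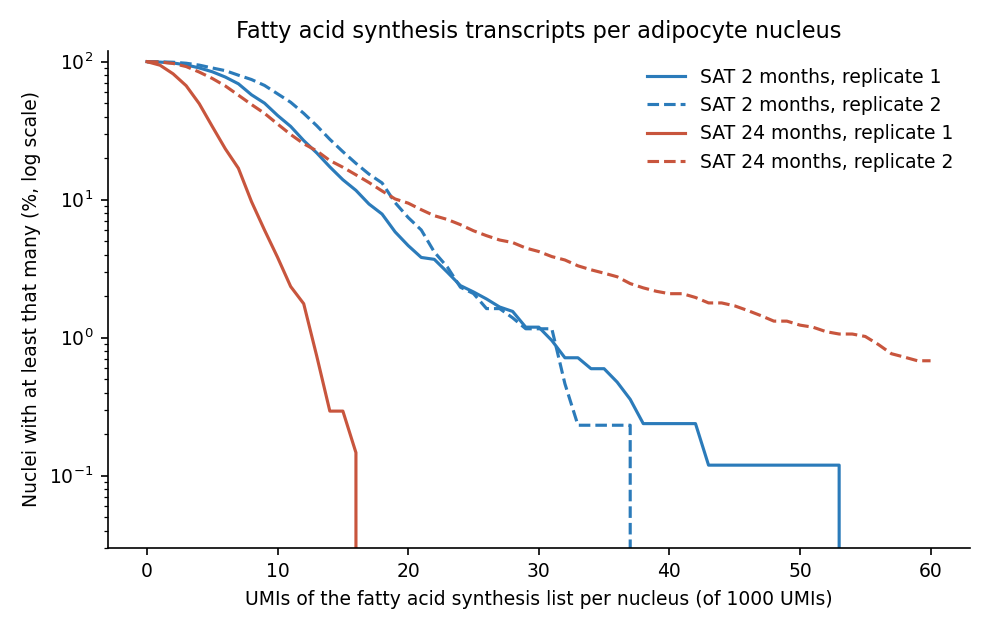
Percent of adipocyte nuclei (y axis, log scale) that hold at least the number of fatty acid synthesis UMIs on the x axis, out of 1000 UMIs a nucleus, with 1 line a library (blue 2 months, red 24 months, dashed replicate 2). The curve of the 24-month replicate 1 falls first and never reaches 20 UMIs, and that of the 24-month replicate 2 has the longest tail, with 4.21% of nuclei at 30 or more.

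Of the genes that bring fatty acids into the cell, 2 of 14 were higher and 1 lower (1 to 6 higher and 1 to 2 lower with a library left out). Cd36, the fatty acid translocase, stood at 903 and 654 CPM at 2 months and 2047 and 2692 CPM at 24 months (1.75 ± 0.34, adjusted p = 0.014). Lrp1, an endocytic receptor of lipoprotein remnants, stood at 1148 and 1447 CPM at 2 months and 395 and 375 CPM at 24 months (-1.59 ± 0.29, adjusted p = 0.01). Both were outside the range of the young pair in both old libraries, though the Cd36 call was lost without either 2-month library. Gpihbp1, the endothelial anchor of lipoprotein lipase, was also higher (3.28), at a level below that of marker-low nuclei. The lipase gene Lpl itself stood at 3445 and 2713 CPM at 2 months and 1656 and 5184 CPM at 24 months (adjusted p = 0.76).

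For lipolysis and the lipid droplet, 2 of 20 genes were higher and 4 lower (0 to 5 higher and 0 to 4 lower with a library left out), and none of the 6 calls was kept in every fit that left out a library. G0s2, an inhibitor of adipose triglyceride lipase, stood at 249.6 and 306 CPM at 2 months and 585 and 1246 CPM at 24 months (1.87 ± 0.37, adjusted p = 0.014). Mgll, the monoglyceride lipase, stood at 319 and 302 against 699 and 828 CPM (1.45). The lipase gene Pnpla2 stood at 577 and 637 against 386 and 601 CPM (adjusted p = 0.78). The lower genes included the droplet proteins Cidea, at 21.3 and 56.1 against 3.39 and 5.54 CPM (-2.79 ± 0.56), and Plin5, at 16.7 and 36 against 4.07 and 4.87 CPM (-2.30), both also marks of oxidative fat, and the lipase gene Ces1d (-1.25). The calls of Cidea and Plin5 were lost without replicate 2 at 2 months, and that of G0s2 without replicate 1.

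Genes of fatty acid oxidation were mostly not called, with 1 of 30 higher and 5 lower (1 to 5 higher and 2 to 5 lower with a library left out) and a median of -0.12. Of the 6 called genes, 4 act in peroxisomes. The share of peroxisomal genes among the 30 tested was not counted, so no theme is read from this. Abcd2, the peroxisomal importer of very long acyl chains, stood at 292 and 198 CPM at 2 months and 756 and 797 CPM at 24 months (1.81 ± 0.29, adjusted p = 0.0075). Pex11a, which promotes peroxisome division, stood at 155 and 182 CPM at 2 months and 42.1 and 69 CPM at 24 months (-1.42 ± 0.27, adjusted p = 0.013), and Acaa1a, a peroxisomal thiolase, at 283 and 279 CPM at 2 months and 95 and 100.4 CPM at 24 months (-1.37 ± 0.23, adjusted p = 0.0079). Abcd2 thus went against the other called peroxisomal genes. Crat, carnitine acetyltransferase, was also lower (-1.25). Cpt1a, of the mitochondrial import step that malonyl-CoA inhibits, stood at 12.1 and 22.7 against 38.7 and 18.8 CPM (adjusted p = 0.27).

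Among genes of pyruvate and the TCA cycle, 3 of 27 passed the test, all lower (0 to 3 higher and 2 to 5 lower with a library left out). They were the pyruvate dehydrogenase kinases Pdk1 (-2.03) and Pdk2 (-1.48) and the subunit gene Pdha1 (-1.18). Pdk1 was below its marker-low level. One of 25 glucose and glycogen genes was called, Pfkfb1 (1.01), with 0 to 4 higher and 0 to 2 lower with a library left out, and the glucose transporter gene Slc2a4 stood at 202 and 160.1 against 116 and 214 CPM (adjusted p = 0.98). For breakdown of branched-chain amino acids, Oxct1 (1.33) and Pcca (1.14) were higher and Bcat2, the mitochondrial transaminase, lower (-1.23), of 24 genes (0 to 3 higher and 0 to 1 lower with a library left out). Cholesterol synthesis had Hmgcs1 (1.42) and Sc5d (1.40) higher and Fdft1 (-1.12) lower of 18 (0 to 2 higher and 0 to 1 lower with a library left out). In cholesterol efflux, Eepd1, a target of LXR, stood at 379.8 and 258 CPM at 2 months and 2384 and 1474 CPM at 24 months (2.75 ± 0.39, adjusted p = 0.0048). Abca8b (2.49) and Abcg1 (1.81) were also higher, and in 1 or both old libraries they were below their marker-low level, while Abca8a (-1.76) and Npc1 (-1.42) were lower, of 14 genes (3 higher and 1 to 3 lower with a library left out).

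Hormone receptors and their feedback genes come next. In the thyroid axis 2 of 11 genes were called, 1 in each direction (1 to 4 higher and 1 lower with a library left out). Tshr, the receptor of thyrotropin, stood at 175 and 82.7 CPM at 2 months and 1728 and 1730.5 CPM at 24 months, a log2 fold change of 3.87 ± 0.42 and an adjusted p of 0.0016. The thyroid hormone receptor gene Thrb stood at 451 and 402 against 599 and 429 CPM (adjusted p = 0.36). Of 29 receptor and cyclic nucleotide genes, 2 were higher and 4 lower (1 to 5 higher and 2 to 4 lower with a library left out). Npr3, the clearance receptor of natriuretic peptides, stood at 144 and 85.4 CPM at 2 months and 1641 and 1709 CPM at 24 months, a log2 fold change of 4.00 ± 0.37 and an adjusted p of 0.0012. Adora1, the antilipolytic adenosine receptor, stood at 129 and 140.1 CPM at 2 months and 33.9 and 32.4 CPM at 24 months, a log2 fold change of -1.87 ± 0.24 and an adjusted p of 0.0036. Tshr, Npr3 and Adora1 separated the ages without overlap, and their calls were kept in every fit that left out a library. Adrb3, the main adrenergic receptor of mouse adipocytes, stood at 1644 and 1416 CPM at 2 months and 1116 and 1669.5 CPM at 24 months (adjusted p = 0.99). Pde4d was higher (1.54) and Adcy2 (-1.95) lower, at levels near those of marker-low nuclei.

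In the list of insulin, IGF and growth hormone genes, 3 of 31 were higher and 2 lower (1 to 7 higher and 1 to 4 lower with a library left out). Grb14, an adaptor that inhibits the insulin receptor, stood at 9.22 and 6.67 CPM at 2 months and 114 and 113 CPM at 24 months, a log2 fold change of 3.91 ± 0.31 and an adjusted p of 0.00074. Socs2, which is induced by growth hormone and limits its receptor, stood at 239 and 260.2 CPM at 2 months and 17 and 12.4 CPM at 24 months, a log2 fold change of -3.99 ± 0.29 and an adjusted p of 0.00058. Both genes are known brakes on a hormone receptor, and they went in opposite directions. The receptors did not pass the test. Ghr, the growth hormone receptor, stood at 6024 and 6306 CPM at 2 months and 13091 and 12051 CPM at 24 months (adjusted p = 0.11), Insr, the insulin receptor, at 573 and 561 CPM at 2 months and 583 and 450.1 CPM at 24 months (adjusted p = 0.97), and Irs1, its substrate, at 533 and 558 against 386 and 393 CPM (adjusted p = 0.41). Igf1 (1.03) and Trib1 (1.02) were higher and Enpp1 (-1.53) lower. Of 22 steroid and retinoid genes, 2 were higher and 1 lower (1 to 6 higher and 1 to 3 lower with a library left out). Aldh1a1, which makes retinoic acid, was higher (1.69). Fkbp5, a cochaperone induced by glucocorticoids, was lower at 383 and 520.5 CPM at 2 months and 94.4 and 67.7 CPM at 24 months (-2.33 ± 0.30, adjusted p = 0.0035), while Nr3c1, the glucocorticoid receptor, stood at 264 and 255 against 365 and 389.8 CPM (adjusted p = 0.084).

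Of 34 tested genes for secreted factors, 13 were higher and 4 lower (10 to 17 higher and 3 to 6 lower with a library left out), with a median of 0.69. After Sfrp5, the largest increases were of Pdgfd, a PDGF ligand, at 15.6 and 12 CPM at 2 months and 120.2 and 151 CPM at 24 months (3.40 ± 0.29, adjusted p = 0.001), and of Bmp3, an atypical BMP, at 23.6 and 8.01 CPM at 2 months and 121 and 148 CPM at 24 months (3.08 ± 0.39, adjusted p = 0.0032). Lep, the gene of the satiety hormone leptin, stood at 95.7 and 73.4 CPM at 2 months and 460.2 and 643 CPM at 24 months (2.84 ± 0.29, adjusted p = 0.0015). Each was low in both young libraries. On the other side, Sema3a, a guidance ligand, stood at 96.8 and 93.4 CPM at 2 months and 4.75 and 9.07 CPM at 24 months (-3.50 ± 0.34, adjusted p = 0.0014), and Gas6, the ligand of TAM receptors, at 567 and 591 CPM at 2 months and 43.4 and 76.8 CPM at 24 months (-3.09 ± 0.31, adjusted p = 0.0014). Cfd, the gene of adipsin, stood at 7732 and 5907 CPM at 2 months and 942 and 2461 CPM at 24 months (-1.87 ± 0.50, adjusted p = 0.039), a call that was lost without replicate 1 at 2 months. In marker-low nuclei Gas6 stood at 168 and 185 CPM at 2 months and at 274 and 510 CPM at 24 months, the opposite order. The median of the secreted list was 0.95 in marker-low nuclei, above the 0.69 of adipocyte nuclei. Of the 13 higher genes, 8 stood at least 2 times above marker-low nuclei in both old libraries. Of the 17 calls, 12 were kept in every fit that left out a library.

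Of 30 adipogenic transcription factor genes, 2 were higher and 3 lower (1 to 7 higher and 2 to 4 lower with a library left out). Ebf1, an early adipogenic factor, stood at 786 and 762 CPM at 2 months and 4476 and 3123 CPM at 24 months, a log2 fold change of 2.46 ± 0.37 and an adjusted p of 0.0058. Rxrg (1.26), a partner of PPAR receptors, was higher, and beside Irf4, Ebf2 (-1.18) and Stat5a (-1.15) were lower. The call of Rxrg was lost without either 2-month library or the 24-month replicate 2, that of Ebf2 without replicate 2 and that of Stat5a without replicate 1 at 2 months. Cebpa, the partner of Pparg in adipogenesis, stood at 269.7 and 195 against 143 and 354 CPM (adjusted p = 0.73). In the thermogenic list, Ppara, the receptor that drives oxidation, stood at 338 and 515 CPM at 2 months and 123 and 79.4 CPM at 24 months (-1.92 ± 0.33, adjusted p = 0.0088). With Cidea and Ebf2 this made 3 of 15 lower, and the calcium channel gene Ryr2 was higher (2.10), with 1 to 3 higher and 1 to 4 lower with a library left out. Ppargc1a stood at 44.4 and 21.4 against 29.2 and 35.1 CPM (adjusted p = 0.94). Hoxa9 (-0.98) was the only call among 12 depot position factors and was lost in 3 of the 4 fits that left out a library. In the fit without the 24-month replicate 1, 2 genes of this list were called higher and 0 lower.

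Cofactors and targets of the TEAD factors, which read the mechanical and growth state of a cell through YAP and TAZ, were higher where called. Of 19 tested genes, 6 passed the test, all higher, with a median of 0.34, against 0.71 in marker-low nuclei. With scaling by total UMIs, 4 genes of the list were called higher. The number called also changed with the library left out. Vgll3 and Ccn1 led. Amot, a membrane scaffold that binds YAP, stood at 4.03 and 4.0 against 12.9 and 13.6 CPM (1.86 ± 0.50), and Yap1 itself at 61.1 and 54.7 against 97.1 and 95.6 CPM (0.88 ± 0.24, adjusted p = 0.042). Wwtr1, the gene of TAZ, at 91.1 and 100.1 against 198 and 185 CPM, and Amotl2, at 288 and 212 against 475 and 634 CPM, complete the count and were chosen after their values were seen. The calls of Amot, Yap1, Wwtr1 and Amotl2 were lost without either 2-month library, and that of Amot also without the 24-month replicate 2. Ccn2, another known target, was not called, at 4.03 and 9.34 against 2.04 and 8.57 CPM (adjusted p = 0.91), also chosen after its value was seen. The element that TEAD factors bind, GGAATG, was looked for on both strands in the RefSeq promoters of the list, from 250 bases before to 50 after each start (GRCm38.p6). It was found in 13 of 23 windows, or 56.5%, against 14.7% of all 32851 promoter windows. This motif was chosen after the values were seen, and the list is partly made of known targets. The 150 bases before the start are shown for 4 of the 6 called genes, with the element or its reverse complement in capitals, because it lies in the promoters of the leading genes:
Vgll3, chr16:65815039-65815188, plus strand: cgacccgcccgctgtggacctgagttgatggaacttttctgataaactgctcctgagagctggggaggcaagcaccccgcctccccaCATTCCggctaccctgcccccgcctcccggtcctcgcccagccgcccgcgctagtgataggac
Ccn1, chr3:145649986-145650135, minus strand: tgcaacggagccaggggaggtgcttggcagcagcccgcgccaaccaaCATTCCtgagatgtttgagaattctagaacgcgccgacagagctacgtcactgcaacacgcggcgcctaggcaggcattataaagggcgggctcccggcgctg
Amotl2, chr9:102717654-102717803, plus strand: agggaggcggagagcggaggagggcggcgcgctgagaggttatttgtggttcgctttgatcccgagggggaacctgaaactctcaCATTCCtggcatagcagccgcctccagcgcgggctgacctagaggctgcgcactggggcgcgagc
Yap1, chr9:8004597-8004746, minus strand: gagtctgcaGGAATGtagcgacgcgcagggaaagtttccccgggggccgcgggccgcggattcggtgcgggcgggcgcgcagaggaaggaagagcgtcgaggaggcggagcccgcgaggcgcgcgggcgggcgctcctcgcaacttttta

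The match began 63 bases before the start in Vgll3, 103 in Ccn1, 65 in Amotl2 and 141 in Yap1. The element was also in the Wwtr1 window and not in that of Amot. Other motifs were searched in the same way. The E-box CACGTG, read by clock and lipogenic factors, was in 5 of 35 windows of fatty acid synthesis genes, 3 of 20 of triglyceride assembly, 5 of 20 of cholesterol synthesis, 6 of 27 of clock and 6 of 23 of TEAD and YAP genes, against 7.15% of all windows. Of the lower fatty acid synthesis genes, Slc25a1 had one, 239 bases before its start, and the windows of Acacb, Acaca and Srebf1 held none of the motifs searched. The D-box TTATGNAA was in 2 of 27 clock windows (3.39% of all), and the sterol element TCACNCCAC in 1 of 35 fatty acid synthesis and 1 of 20 cholesterol synthesis windows (1.24% of all). A match of letters is a description and says nothing of binding.

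The Wnt list had 3 of 23 called genes, all higher (2 to 5 higher and 0 lower with a library left out). Beside Sfrp5 these were Fzd4, a Wnt receptor, at 388 and 304 CPM at 2 months and 859 and 1114 CPM at 24 months (1.66 ± 0.29), and Lgr4, a receptor of R-spondins, at 74.4 and 82.7 CPM at 2 months and 204 and 177 CPM at 24 months (1.44 ± 0.24). The Fzd4 call was lost without replicate 2 at 2 months. In the imprinted growth list 5 of 12 passed the test, all higher, with a median of 0.85. After Mest, Peg10 was higher (2.41) and Plagl1, a zinc finger regulator of the imprinted network, stood at 57.6 and 22.7 CPM at 2 months and 168 and 178 CPM at 24 months (2.17 ± 0.37, adjusted p = 0.0085). The counts were 3 and 2 higher without replicate 1 or 2 at 2 months. Without replicate 1 or 2 at 24 months they were 8 and 6 higher, with 1 lower in each.

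Most called surface and matrix genes were higher at 24 months. Caveolae, the membrane pits that are dense on adipocytes, had 6 of 11 genes called, all higher, with a median of 1.00. Cav1, their main coat protein, stood at 366 and 211 CPM at 2 months and 821 and 1243 CPM at 24 months (1.97 ± 0.36, adjusted p = 0.011). Cavin3 stood at 13.8 and 4.0 CPM at 2 months and 40.7 and 118 CPM at 24 months (3.13 ± 0.59) and Cav2 was higher too (1.53). Between 2 and 7 genes of the list were called when a library was left out. The same list had a median of 1.46 in marker-low nuclei. Of 19 basement membrane genes, 6 were higher and 2 lower (3 to 9 higher and 0 to 1 lower with a library left out). Col15a1, a collagen of that layer, stood at 34.6 and 14.7 CPM at 2 months and 245 and 501 CPM at 24 months (3.96 ± 0.46, adjusted p = 0.0023), Lama4, the laminin chain of adipocytes, at 322 and 338 CPM at 2 months and 1206 and 1225 CPM at 24 months (2.04 ± 0.28, adjusted p = 0.0042), and Nid1 was higher (1.67). Col4a3 (-1.88) and Agrn (-1.13) were lower. The basement membrane list had a median of 0.79 in adipocyte nuclei and 0.80 in marker-low nuclei. Of its 6 higher genes, 3 stood at least 2 times above marker-low nuclei in both old libraries. Of 30 fibrillar and interstitial matrix genes, 12 were higher and 1 lower, Col8a1 (-1.93), with 10 to 18 higher and 0 to 5 lower with a library left out. Thbs1, thrombospondin 1, stood at 1.73 and 10.7 CPM at 2 months and 113 and 212 CPM at 24 months (5.25 ± 0.59, adjusted p = 0.002) and followed Timp4. Timp3 (3.25) was higher at a level below that of marker-low nuclei. The fibrillar and interstitial list had a median of 0.79 in adipocyte nuclei and 0.74 in marker-low nuclei. Of its 12 higher genes, 5 stood at least 2 times above marker-low nuclei in both old libraries. Beside these genes stand the FAP marker sum, lowest in one old library and highest in the other, and the smooth muscle and pericyte marker sum, higher in both old libraries (46.7 and 62.7 against 146 and 268 CPM, 3 of 6 markers called higher). Their part in the matrix counts was not tested.

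**Figure D4:**
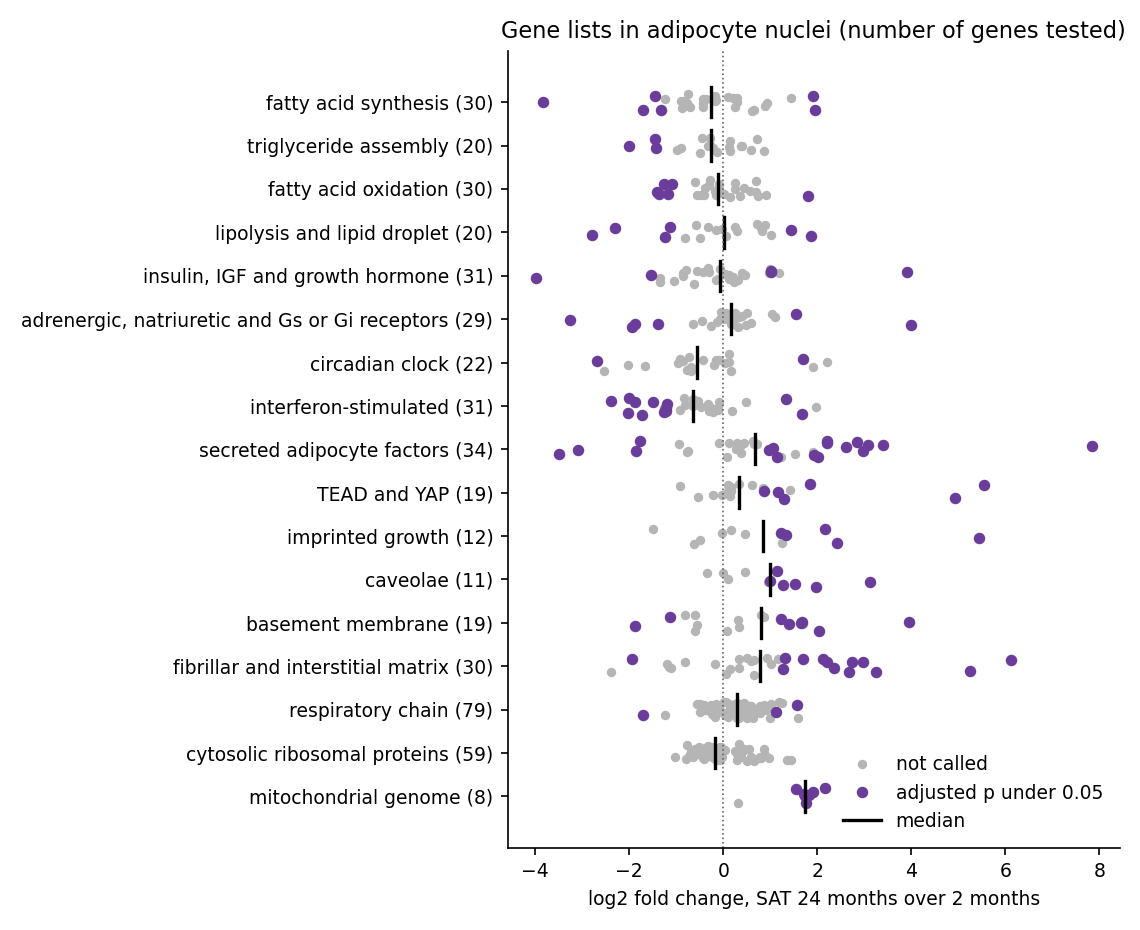
Each point is a tested gene, placed by its log2 fold change of 24 over 2 months (x axis), in 17 lists whose number of tested genes stands in brackets. Called genes are purple and black bars are medians. The medians reach 0.69 for secreted factors, 0.79 for both matrix lists and 1.75 for the mitochondrial genome, and -0.65 for interferon-stimulated genes. In marker-low nuclei, not drawn, the medians were 0.95 for secreted factors, 0.80 for basement membrane and 0.74 for fibrillar matrix genes. There they were 0.46 for the mitochondrial genome and -0.46 for interferon-stimulated genes.

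The next lists cover interferon-stimulated, complement and acute phase, and immediate early and heat shock genes. Interferon-stimulated genes had 10 of 31 lower and 2 higher (1 to 3 higher and 3 to 13 lower with a library left out), with a median of -0.65. Oasl2 (-2.38), Irf7 (-2.03) and Ifit3 (-1.995) fell most, and Parp9 (1.68) and Dtx3l (1.33) were higher. Over the same nuclei the T and B cell marker sums fell, as given above, and their part in this count was not tested. In the complement and acute phase list, C3, the central complement component, stood at 248 and 252 CPM at 2 months and 27.2 and 75.9 CPM at 24 months (-2.08 ± 0.39, adjusted p = 0.012), and with Cfd and Il6ra (-1.22) led 5 of 20 lower genes, beside 2 higher (2 to 6 higher and 1 to 7 lower with a library left out, with 1 lower without the 2-month replicate 1 and 7 without the 24-month replicate 2). Cd59a, a membrane inhibitor of complement, was higher at 37.5 and 37.4 CPM at 2 months and 145 and 172 CPM at 24 months (2.23 ± 0.25, adjusted p = 0.0018), as was Serping1 (1.84). Immediate early and heat shock genes had 8 of 26 higher and 1 lower (3 to 12 higher and 0 to 2 lower with a library left out), led by Hspb1 (4.15), Fos (4.09) and Dusp1 (2.23), with Egr3 lower (-1.83). Hspb1 and Fos stood below their marker-low level. With scaling by total UMIs, 4 genes of the list were called higher.

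Transcripts of the mitochondrial genome were higher in 7 of 8 tested genes, with a median of 1.75, and in 0 without the 2-month replicate 2. Their sum was 9111 and 4353 CPM at 2 months and 18420 and 24225 CPM at 24 months, and 17980 to 33367 CPM in marker-low nuclei. These RNAs are made outside the nucleus. None of the 7 calls was kept in every fit that left out a library. Nuclear genes of the respiratory chain had Ndufs5 (1.58) and Ndufb3 (1.13) higher and Atp5o (-1.71) lower of 79, with a median of 0.30. These counts too turned with the old libraries, to 22 higher and 1 lower without the 24-month replicate 1 and 1 higher and 7 lower without the 24-month replicate 2. Of 59 cytosolic ribosomal protein genes edgeR called 0, with 5 at an unadjusted p under 0.05, and DESeq2 also called 0. Without the 24-month replicate 1, 10 were called higher, and without the 24-month replicate 2, 16 were called lower.

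For NAD metabolism, Nampt, the rate-limiting enzyme of NAD salvage, stood at 511 and 404 CPM at 2 months and 122 and 118 CPM at 24 months (-1.78 ± 0.26, adjusted p = 0.005). Nnmt, which consumes nicotinamide, stood at 58.2 and 82.7 CPM at 2 months and 244 and 199 CPM at 24 months (1.83 ± 0.28, adjusted p = 0.0058). Nmnat2 (-1.80) and Cd38 (-1.62) were lower too, of 20 genes (1 higher and 1 to 3 lower with a library left out). In the AMPK list, Stk11, at 307 and 348 against 166 and 129 CPM, and Flcn (-0.95) were lower beside the higher Prkag3, of 17 (1 to 2 higher and 0 to 3 lower with a library left out). Among 36 antioxidant genes, Gpx3, the secreted glutathione peroxidase, stood at 1475 and 1431 CPM at 2 months and 247 and 353 CPM at 24 months (-2.12 ± 0.30, adjusted p = 0.0046). Gpx8 (-1.77) and Nfe2l2 (-0.83) were lower as well, and Gpx1 (1.71) and Prdx6 (1.53) higher. The counts became 9 higher and 2 lower without the 24-month replicate 1 and 3 higher and 5 lower without the 24-month replicate 2. Amino acid transport and asparagine genes had 5 of 23 lower (0 to 3 higher and 1 to 8 lower with a library left out, with 1 lower without the 2-month replicate 2 and 8 without the 24-month replicate 2), with Aspg, Slc38a1 (-2.26) and Slc7a11 (-1.82) in front, and Slc7a6 (1.08) and Gpt (0.91) higher. Slc38a1 and Slc7a11 stood below their marker-low level.

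For hypoxia, Adm (2.73), P4ha2 (1.63) and Ndrg1 (1.29) were higher and Pdk1 lower, of 17 genes (1 to 4 higher and 1 to 3 lower with a library left out). The unfolded protein and amino acid stress list had Creb3l2 (1.02) higher and Chac1 (-2.87) and Pdia4 (-1.12) lower, of 30. Without the 24-month replicate 1 this became 6 higher and 2 lower, and without either 2-month library no gene of the list was called higher. Of 29 mTOR and autophagy genes, Sesn1 (1.08) was the only call, against 6 higher without the 24-month replicate 1 and 6 higher and 2 lower without the 24-month replicate 2. In the senescence and cell cycle arrest list 2 of 17 passed the test, Ccnd3 (-1.55) and Cdkn1b (-1.33), both lower and both below their marker-low level, while the counts were 5 higher and 3 lower without the 24-month replicate 1 and 2 higher and 3 lower without the 24-month replicate 2. Cdkn1a, the gene of the cell cycle inhibitor p21, stood at 11 and 13.3 CPM at 2 months and 17 and 65.2 CPM at 24 months (1.99 ± 0.59, adjusted p = 0.055), and Trp53, which encodes p53, at 25.9 and 25.4 against 19.7 and 30.6 CPM (adjusted p = 0.82).

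Of 22 circadian clock genes, 1 was higher and 1 lower. Without the 24-month replicate 1 the counts were 3 and 8, without the 24-month replicate 2 they were 1 and 4, and without the 2-month replicate 2 they were 3 and 4. Clock, a core activator, stood at 67.4 and 56.1 CPM at 2 months and 144 and 221 CPM at 24 months (1.70 ± 0.28, adjusted p = 0.0075). The list had a median of -0.55, against 0.51 in marker-low nuclei. For Dbp, a PAR bZIP factor, the old libraries lay far apart, at 209.8 and 165 CPM at 2 months and 86.2 and 5.54 CPM at 24 months (adjusted p = 0.17). Nr1d1, the REV-ERB alpha repressor, had nearly the same pair of values at both ages, 155 and 104 against 155 and 104 CPM (adjusted p = 0.83). Per1, a clock repressor whose old libraries lay close together, stood at 223 and 203 against 116 and 124 CPM (adjusted p = 0.078). The time of day of dissection is not given in the sources used here, and its part in these values was not tested.

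Some called genes stood, at the age where they were higher, below the marker-low nuclei of the same library in 1 or both libraries. Among the genes named above these were Pde4d, Slc38a1, Slc7a11, Abcg1, Abca8b, Clock, Serping1, Mid1ip1, Gpihbp1, Col8a1, Timp3, Pdk1, Ndrg1, Adm, Egr3, Fos, Hspb1, Enpp1, Oasl2, Dtx3l, Cd38, Ccnd3, Cdkn1b and Pdia4, and the part of RNA from other nuclei in their calls was not tested. Many calls of named list genes were lost when 1 library was left out, with "either" meaning each in turn. The calls of Mid1ip1, Cd36, Mgll, Ces1d, Pfkfb1, Oxct1, Fdft1, Pde4d, Trib1, Yap1, Wwtr1, Amotl2, Agrn, Nmnat2, Cd38, Flcn, Slc7a11, Slc7a6, Ndrg1, Creb3l2 and Sesn1 were lost without either 2-month library. Leaving out the 2-month replicate 1 ended the calls of Gpam, G0s2, Crat, Pdha1, Bcat2, Sc5d, Abca8a, Adcy2, Igf1, Cfd, Stat5a, Il6ra, Ndufb3, Chac1 and Pdia4. Leaving out the 2-month replicate 2 ended the calls of Acaca, Cidea, Plin5, Pdk2, Pcca, Enpp1, Aldh1a1, Ebf2, Fzd4, Cav2, Oasl2, Slc38a1 and Cdkn1b. The calls of Rxrg, Amot, Peg10, Col8a1, Ndufs5, Atp5o, Stk11 and Gpt were lost without either 2-month library or without the 24-month replicate 2. The calls of Hmgcs1, Hspb1 and Adm were lost without the 2-month replicate 1 or the 24-month replicate 2. Leaving out the 24-month replicate 2 ended the calls of Gpihbp1 and Fos. The calls of Hoxa9 and Nfe2l2 were lost without either 2-month library or without the 24-month replicate 1. The calls of Col4a3 and Egr3 were lost whichever library was left out. The call of Ifit3 was lost without the 2-month replicate 2 or the 24-month replicate 2. The call of Dtx3l was lost without the 2-month replicate 1 or the 24-month replicate 1. The other called genes named from the lists were called in each of these fits.

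The share of nuclei with a UMI was also counted. At a fixed depth this share follows the mean level and does not measure how many nuclei express a gene. After thinning each nucleus to 1000 UMIs, Tshr had a UMI in 12.2% and 6.73% of nuclei at 2 months and in 69.3% and 70.6% at 24 months, and Npr3 in 9.3% and 7.19% of nuclei at 2 months and in 71.4% and 67.8% at 24 months. In marker-low nuclei the shares were 0.956% to 4.66% for Tshr and 0.357% to 7.77% for Npr3. In adipocyte nuclei both shares were higher in the old pair than in the young pair. Lep was detected in 7.75% and 6.5% of nuclei at 2 months and in 31.1% and 40.6% at 24 months, and Sfrp5 in 0.119% and 0% of nuclei at 2 months and in 12% and 14.1% at 24 months, against 0.252% to 4.91% and 0% to 1.06% of marker-low nuclei. The 0 of 431 nuclei in the 2-month replicate 2 allow a share of up to 0.696%, which limits nuclei with a UMI and not nuclei expressing Sfrp5. Acacb was detected in 66.3% and 74.9% of nuclei at 2 months and in 10.4% and 8.16% at 24 months, with 2.45% to 3.86% of marker-low nuclei. Shares depend on depth, and without thinning 22.8% of the nuclei of the 24-month replicate 2 held an Sfrp5 UMI.

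**Figure D5:**
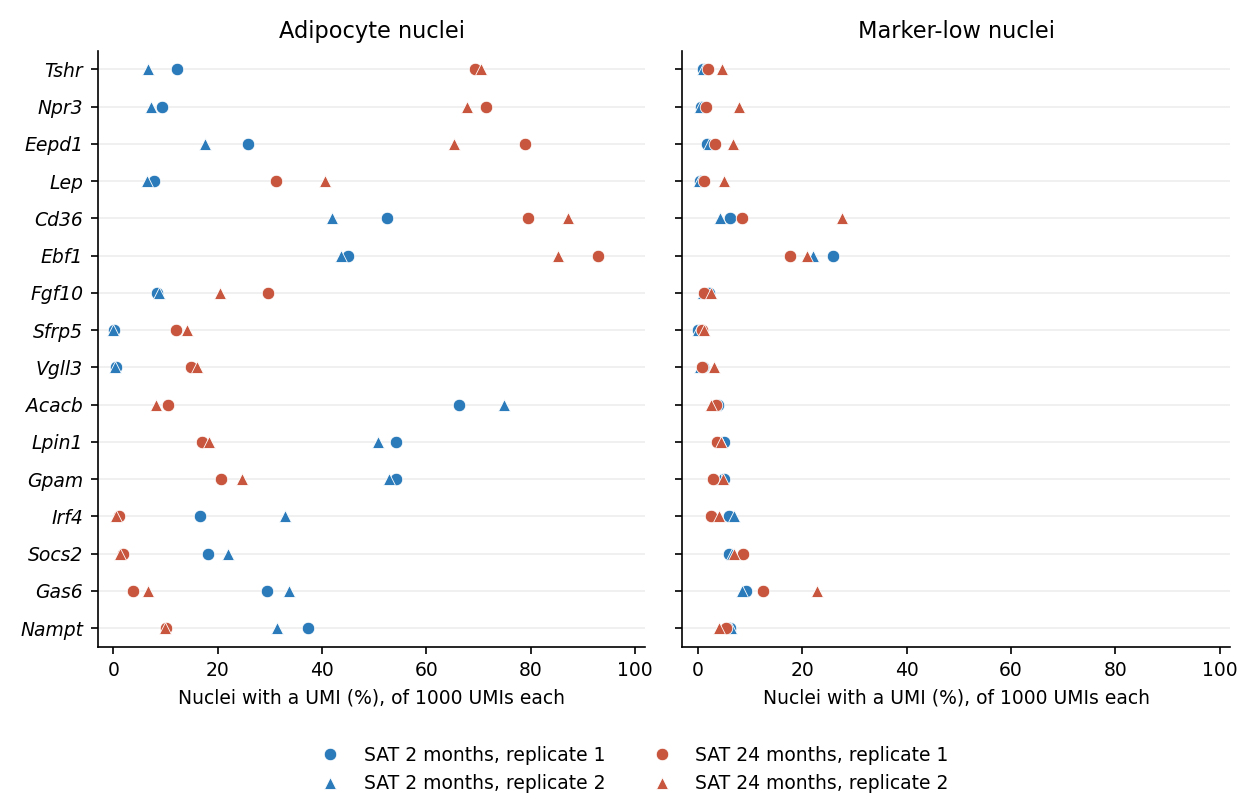
Share of nuclei with at least 1 UMI of a gene, in percent (x axis), after thinning to 1000 UMIs, in adipocyte nuclei (left) and marker-low nuclei (right), with 1 point a library (blue 2 months, red 24 months). For Tshr, Npr3 and Eepd1 both old libraries lie above 60% in adipocyte nuclei and below 8% in marker-low nuclei, and for Acacb the young libraries lie above 60%.

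Visceral adipocyte nuclei at 24 months, 3063 and 161 by the same rule, give these values a reference without a young counterpart. There Tshr stood at 1965 and 2638 CPM, Npr3 at 1214 and 969 CPM, Vgll3 at 256 and 164 CPM and Sfrp5 at 54.1 and 42.2 CPM. Aspg stood at 38.4 and 4.44 CPM and Irf4 at 9.76 and 11.1 CPM. No test was made between depots here.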

How the data were processed

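Nuclei of mouse fat were profiled with the Singleron GEXSCOPE kit. Per the labels and methods, the authors aligned and counted reads with Celescope against GRCm39 (version and annotation release not given in the sources used here) and deposited UMI counts per gene and barcode for each library. The authors' own nucleus selection was not used. All steps from the deposited counts on were made here in Python 3.11.15 (scanpy 1.11.5) and R 4.3.3. Of 56980 gene identifiers, 56236 were placed with GENCODE annotation of GRCm39.

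Counts of the chosen nuclei were summed per library, since nuclei are not replicates, and tested with edgeR 4.0.16 (filterByExpr, TMM, quasi-likelihood). DESeq2 1.42.0, other scalings, filters, nucleus rules and left-out libraries were alternatives. Doublets were limited only by the marker rule, because Scrublet marked at most 0.562% of nuclei and cannot be taken to have worked. The rule, the members and the gene lists were chosen with earlier results of these data known. Named genes are the 10 with the largest fold change per direction under the conditions given, up to 3 called genes per list and direction, and reference genes of each pathway. Some called list genes are counted but not reported here by name. CPM and thinned shares are descriptions. Promoter windows come from RefSeq on GRCm38.p6, another build than the counts, and were matched by symbol.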

Additional observations from a re-analysis of the deposited data

Results flagged for a closer look

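Age differences that were not alike in adipocyte and marker-low nuclei of the same SAT libraries were singled out by the interaction test (edgeR quasi-likelihood with the library as a block, Benjamini-Hochberg adjusted p under 0.05). It called 904 of 16680 genes, and 17 of the 20 genes named for their size. Those 20 were chosen for large adipocyte differences and for standing at least 2 times above marker-low nuclei at the age where they are higher, which favours a called interaction of the same sign, so the count is no independent support. The values are differences of the 2 log2 fold changes, adipocyte minus marker-low nuclei, from 2 libraries at each age. Among genes that were higher at 24 months, the difference was 5.90 for Ptchd4, 4.54 for Vgll3, 3.67 for Mest, 5.20 for Folh1, 3.73 for Gask1b, 3.98 for Ccn1 and 4.34 for Ric3. Among genes that were lower, it was -5.60 for Aspg, -4.12 for Irf4, -4.34 for Mmd2, -5.58 for Aldh3b2, -2.99 for Acsm3, -3.97 for Rgs2, -3.38 for Fgf14, -3.27 for Acacb, -4.57 for Lingo4 and -4.26 for Rnf144b. Marker-low nuclei are a mixture of cell types whose makeup differs between libraries, so the part of that makeup in these values was not tested.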

How the results depend on the processing

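The 20 genes named for their size were called in the same direction under every alternative run, and every gene called both over all libraries and under an alternative had 1 direction. Of the 1908 calls, 1735 were shared with scaling by total UMIs, where the calls were 2051, and the share of higher calls moved from 40.5% to 29.2%. RLE size factors called 1956 genes, the fit with both VAT libraries 1441, DESeq2 1375, nuclei under 5% mitochondrial UMIs 2415 and counts thinned to the smallest library 1461. Without the filter on low counts 2638 of 31451 genes were called, of which 62.5% were higher. Among genes at least as high in adipocyte as in marker-low nuclei, 1406 of 4900 were called, 48.2% of them higher. With DESeq2 48.9% and with VAT 49.0% of calls were higher. The cause of these shifts was not tested. Stricter and looser marker rules (at least 10 or at least 3 adipocyte UMIs, or 0 UMIs of the other genes) called 1850, 1633 and 1732. Leaving out the 5% of nuclei with the highest doublet scores, an alternative added after seeing the data, called 2004.

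Leaving out 1 library at a time called 1013 to 2630 genes, with 1110 and 1013 without replicate 1 or 2 at 2 months and 2630 and 2496 without replicate 1 or 2 at 24 months. In these fits the age with 1 library is assumed to vary like the other. Listed genes called ranged from 121 to 322 around 186. Without the 24-month replicate 2 Scd1 was reversed, at -1.59, and without the 24-month replicate 1 it was higher, at 1.56. The difference in the share of adipocyte nuclei ranged from 14.5 to 37.1 percentage points when a library was left out. The interaction count of 904 became 1113 with marker-low nuclei of 0 adipocyte UMIs and 1171 with scaling by total UMIs.

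The labels give both ages the same replicate numbers. Deviations of same-numbered libraries did not go together (r = -0.08 across genes), so the numbers were not taken as pairs. A fit with the replicate number as a block called 1471 genes. Depth limits low genes most in the 2-month replicate 2, with 749307 UMIs.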

Other observations

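The 24-month libraries differed in clock genes beyond those described. These genes were chosen after their values were seen. Arntl, the activator that pairs with Clock, stood at 17.9 and 17.3 CPM at 2 months and 12.9 and 103 CPM at 24 months, and Npas2, its other partner, at 8.07 and 8.01 CPM at 2 months and 2.04 and 61.1 CPM at 24 months. Ciart, a repressor of the clock, stood at 31.7 and 22.7 CPM at 2 months and 11.5 and 0.504 CPM at 24 months, and Tef, a PAR bZIP output factor, at 769 and 586 CPM at 2 months and 300.04 and 87.5 CPM at 24 months. In Arntl and Npas2 the old replicate 2 was high and the other 3 libraries were low, and in Ciart and Tef it was the lowest of the 4. None of the 4 passed the age test. Adjusted p was 0.12 for Arntl, 0.19 for Npas2, 0.13 for Ciart and 0.063 for Tef.

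Further secreted factors, also chosen after their values were seen, were higher at 24 months. Rarres2, the gene of chemerin, stood at 29.4 and 18.7 CPM at 2 months and 105 and 169 CPM at 24 months (2.61 ± 0.33, adjusted p = 0.0035). Fgf10, a paracrine growth factor of adipose precursors, stood at 100.3 and 97.4 CPM at 2 months and 498 and 317 CPM at 24 months (2.20 ± 0.31, adjusted p = 0.0046), and Vegfc, a lymphatic growth factor, at 3.46 and 2.67 CPM at 2 months and 22.4 and 23.3 CPM at 24 months (2.97 ± 0.49, adjusted p = 0.0079). In marker-low nuclei Vegfc stood at 8.69 to 44 CPM.

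List sums per nucleus, of 1000 UMIs each, are given without a test. Triglyceride assembly genes had a mean of 7.66 and 9.59 UMIs at 2 months and 3.91 and 4.86 at 24 months. Caveolae genes had 1.14 and 0.93 against 1.92 and 2.93, and imprinted growth genes 5.02 and 4.13 against 8.49 and 8.13. For these lists both old libraries lay on the same side of the young pair.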
